A study of Mus musculus with 4 samples.

Results

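The genes described here are the immunoglobulin segments, the pieces of the antibody heavy chain (Igh), kappa light chain (Igk) and lambda light chain (Igl) loci. All rows of the deposited TPM table (length-scaled transcript abundance) whose gene type starts with IG_ were taken, which gave 37 of its 19991 genes, out of 57186 genes in the deposited count table. Of the 37, 9 were constant region genes and 28 were variable (V) segments, while no joining (J) segment was in the table. The heavy chain locus on chromosome 12 gave 14 members, the kappa locus on chromosome 6 gave 19 and the lambda locus on chromosome 16 gave 4, with chromosomes from the GENCODE M21 annotation. The TPM table held only genes with a total of at least 51 counts over the 4 libraries: Iglc3 (51 counts) and Ighv1-82 (52) were just inside, and Igkv3-5 and Ighv9-3 (48 each) were just outside. The full count table held 431 rows that GENCODE M21 types as immunoglobulin, among them 218 V and 14 J segments. These stand beside the 37 where the minimum could matter.

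RNA was sequenced from whole mouse uterus on gestational day 4, from 2 wild-type controls and 2 Prss29Cre/Cre;Pgrf/f knockouts (called Pgr gecKO in the labels). The knockouts carried Cre at both copies of Prss29, a gland gene, and floxed alleles of Pgr, the progesterone receptor gene. The comparison asks which uterine RNAs differ when gland epithelium lacks that receptor, but Cre, the Prss29 change and the Pgr deletion cannot be told apart. The labels give no strain, age or parity, do not say that the controls were littermates, and do not say whether each sample was a separate animal, so the spread between samples may be technical. Total counts ran from 29932153 to 35149834 per library. As a check of the labels, Prss29 had 1524 and 190 counts in controls 1 and 2, against 0 in each knockout. Pgr was at 138.6 to 140.5 CPM (counts scaled to the library size with TMM factors) in controls and 130.1 to 146.2 CPM in knockouts, in a tissue where stroma and muscle also transcribe it, so Pgr does not check the gland deletion. All 8 uterine stroma markers and all 8 epithelium markers examined had counts in every library.

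An antibody pairs heavy chains with kappa or lambda light chains. In each developing B cell a V segment is joined to J (and in the heavy chain D) segments ahead of a constant region. The heavy constant region sets the isotype, IgM first and, after class switching, IgG, IgE or IgA, and plasma cells then transcribe the joined genes at very high levels. At mucosal surfaces, the uterus included, plasma cells secrete IgA that the joining protein Jchain links into polymers and that the epithelial receptor Pigr carries into the lumen.

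Shown here, read 5′ to 3′, are the first 90 coding bases of GENCODE M21 (GRCm38) transcripts. They come from heavy constant regions of the isotype comparison (Igha, Ighm, Ighg2b and Ighg2c) and from the kappa constant region (Igkc). In the Ighg2b and Ighg2c pair, capitals mark the 7 bases at which these similar IgG genes differ.
Igha: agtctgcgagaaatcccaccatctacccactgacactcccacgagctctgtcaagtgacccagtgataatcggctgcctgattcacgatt
Ighm: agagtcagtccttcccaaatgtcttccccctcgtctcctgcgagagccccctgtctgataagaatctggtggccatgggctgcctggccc
Ighg2b: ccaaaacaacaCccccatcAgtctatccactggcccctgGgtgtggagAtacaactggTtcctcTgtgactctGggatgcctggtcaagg
Ighg2c: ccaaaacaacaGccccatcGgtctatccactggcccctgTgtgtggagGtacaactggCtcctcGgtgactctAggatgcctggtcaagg
Igkc: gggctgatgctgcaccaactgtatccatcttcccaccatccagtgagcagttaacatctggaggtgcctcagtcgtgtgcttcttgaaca
Over the whole coding sequence Ighg2b and Ighg2c were 85.6% identical, whereas Igha and Ighm were 42.7% identical. None of the 9 constant genes shared a stretch of 150 bases, the length of 1 read, with another immunoglobulin gene. A read that matches in full over that length has a single place among these genes, although how the counting treated reads with more than 1 match is not given in the sources used here.

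Summed over the 37 members, immunoglobulin RNA was at 494.9 and 500.3 CPM in controls 1 and 2 and at 99.66 and 93.81 CPM in knockouts 1 and 2. The mean was 497.6 ± 3.80 CPM in the controls and 96.74 ± 4.14 CPM in the knockouts (SD, n = 2 each), 5.14-fold lower. Both knockouts lay far below both controls, while the higher sample of a group exceeded the lower 1.01-fold in the controls and 1.06-fold in the knockouts. With 2 against 2 samples the smallest 2-sided permutation p is 0.333, so sums are given without a test. Over all 431 typed rows the sum was 4.94-fold lower. In whole tissue, fewer antibody-making cells and less RNA per cell cannot be told apart.

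No single member passed the test across all genes in edgeR's quasi-likelihood fit (Benjamini-Hochberg adjusted p under 0.05 over 20950 genes). Of 25 members tested, 0 were called lower and 0 higher, against 0% and 0.00477% of all genes tested. At an unadjusted p under 0.05, 11 members were lower and 1 was higher, where 1.79% and 1.22% of all genes were. DESeq2 gave an adjusted p for all 37 members. It called 5 lower (Igha, Igkc, Iglc1, Iglv1 and Igkv4-50) and 1 higher (Ighg2b), against 0.2% and 0.191% of genes, and limma-voom called 0. The log2 fold change was below 0 for 21 of the 25, against 48.9% of all genes, and its median was −1.83, against 0.0063. Without 1 library the median over the genes among these 25 that were tested ran from −2.01 (24 genes, without control 2) to −1.31 (without control 1). The 12 members that were not tested were all V segments with too few libraries at the count minimum, so the 25 are not all members. A member could also enter the test through both controls alone, as Ighv5-6 did, with 59 and 12 counts there against 0 and 4 in the knockouts. The numbers of members below 0 or under an unadjusted p, and the median, are therefore a description.

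The plot of tested members orders their fold changes within each kind.

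**Figure D1:**
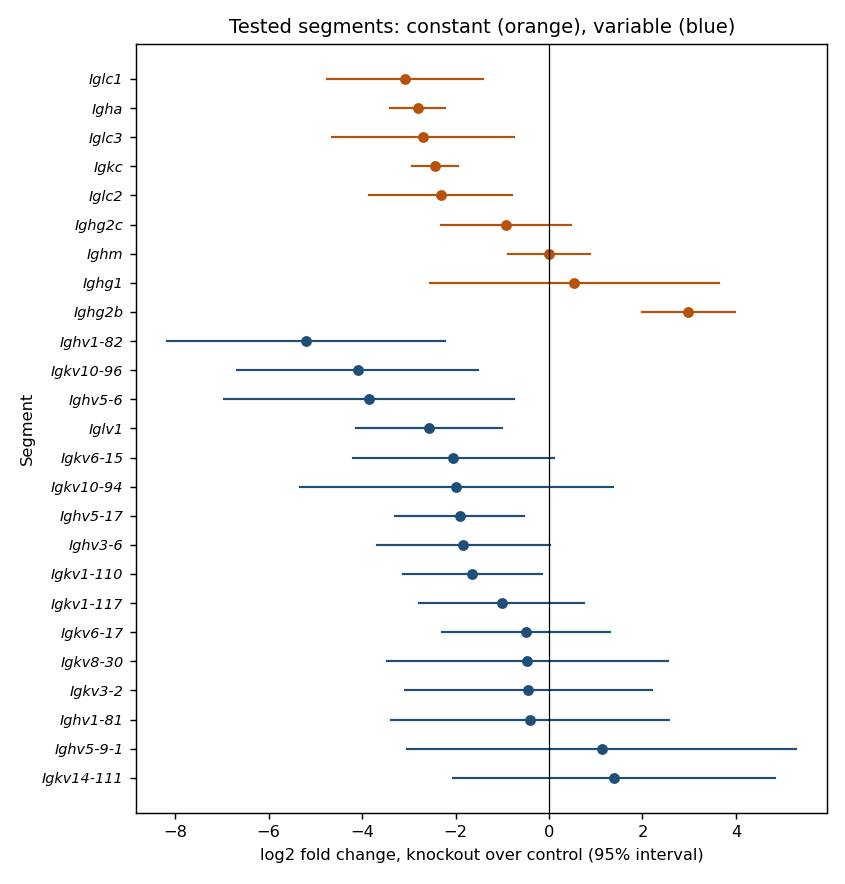
The edgeR log2 fold change of the 25 tested members, knockout over control, with 95% intervals as lines, for 9 constant genes (orange) and 16 V segments (blue). The intervals of Igha and Igkc are narrow and lie below 0, Ighg2b alone has an interval above 0, and most V intervals are several log2 units wide.

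Among heavy chain constant genes, Igha, the constant region of IgA, made up most of the difference in CPM. Igha (ENSMUSG00000095079) stood at 327.5 and 355.5 CPM in the controls against 52.69 and 44.55 CPM in the knockouts. Both knockouts were far below both controls, at 48.62 ± 5.75 against 341.5 ± 19.8 CPM (SD, n = 2 each). The log2 fold change was −2.81 (SE 0.25, 95% interval −3.40 to −2.22), with an edgeR adjusted p of 0.0613. Across 11 alternative fits the adjusted p ran from 1.4e-19 (DESeq2) to 0.0848 (limma-voom). It was under 0.05 in 7 of them, including each of the 4 fits that left out 1 library. The call therefore rests on the choice of fit, while the size of the difference, −2.69 to −2.94 without any 1 library, does not.

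Ighm, the constant region of IgM, differed from Igha in this. It stood at 7.54 and 10.94 CPM in the controls against 11.15 and 7.27 CPM in the knockouts, so the groups overlapped fully. Its log2 fold change was −0.0037 (SE 0.37), and the 95% interval of −0.88 to 0.87 leaves room for a change of either sign but not for one of the size of Igha. DESeq2 placed it at 0.0022, on the other side of 0.

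Ighg2b, the constant region of IgG2b, was the only member whose 2 knockout values both lay above the control values, which 12.2% of all tested genes did. It had 28 and 27 counts in the controls against 192 and 188 in the knockouts, or 0.806 and 0.769 CPM against 5.80 and 6.70 CPM. The log2 fold change was 2.98 (SE 0.41, 95% interval 1.99 to 3.97). The edgeR adjusted p was 0.216 and that of DESeq2 was 7.61e-07, with a range of 7.61e-07 to 0.276 over the alternatives, of which 2 of 11 called it. Its close relative Ighg2c, whose first 90 bases are shown beside it above, was not higher in the knockouts: Ighg2c had 46 and 105 counts in the controls against 46 and 25 in the knockouts (log2 fold change −0.91, SE 0.58). Per length, Ighg2b stood at 0.301 and 0.127 of the Ighg2c TPM in the controls against 2.07 and 3.72 of it in the knockouts, so their order was turned round in both knockouts.

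The remaining heavy chain constant genes had few counts. Ighg1 (IgG1) had 2 and 24 counts in the controls against 33 and 2 in the knockouts, so each group held 1 high and 1 low library, and its fold change took either sign when 1 library was left out. Ighd (IgD, 44 counts in all), Ighg3 (IgG3, 28) and Ighe (IgE, 6) fell below the minimum of the TPM table. Of the 28 Ighg3 counts, 23 came from knockout 1.

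**Figure D2:**
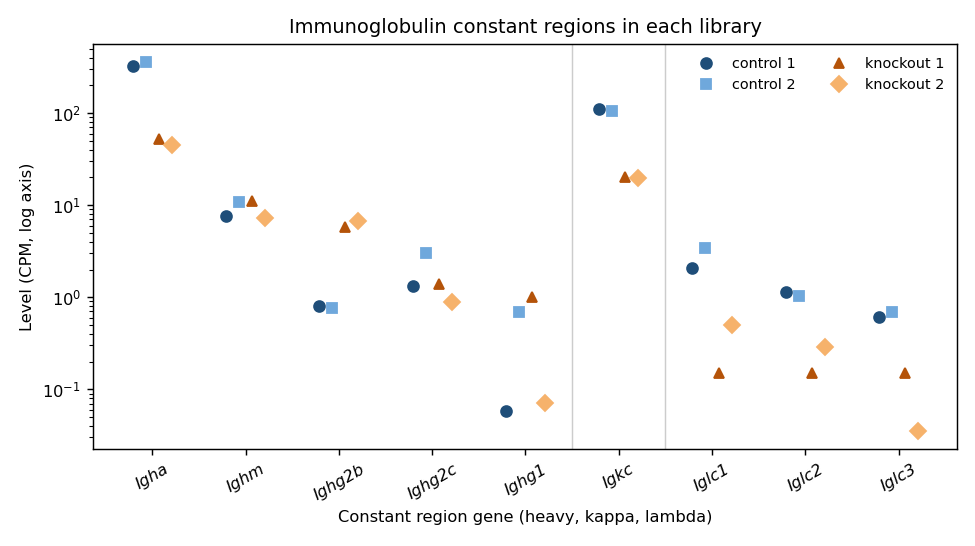
Level of each of the 9 constant region genes in CPM on a log axis, with 1 point per library (blue controls, orange knockouts). Igha, Igkc and the lambda genes sit lower in both knockouts, Ighg2b sits higher, and the groups overlap for Ighm, Ighg2c and Ighg1.

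The isotype make-up of heavy chain RNA differed between the groups. With counts scaled by gene length, Igha made up 95.8% and 93.9% of the level of the 5 heavy constant genes in the controls against 67.5% and 70.3% in the knockouts, a difference of −26.0 percentage points between means. Ighm made up 3.12% and 4.09% in the controls against 20.2% and 16.2% in the knockouts, while its own CPM overlapped between the groups. Ighg2b made up 0.235% and 0.203% in the controls against 7.41% and 10.5% in the knockouts. In all 3 the groups did not overlap. As a share of raw heavy constant counts, Igha made up 97.1% (95% Wilson interval 96.8 to 97.4) and 95.9% (95.5 to 96.2) in the controls against 73.1% (71.3 to 74.9) and 74.9% (72.8 to 76.9) in the knockouts. These intervals cover counting error only, and those of the 2 controls do not overlap each other, so they do not measure the spread between samples. The Ighg2c share was 0.780% and 1.59% in the controls against 3.58% and 2.83% in the knockouts, although its CPM was not higher there. With Igha set aside, Ighm still made up most of the rest in every library, at 75.2% and 67.4% in the controls against 62.2% and 54.6% in the knockouts. Ighg2b took 5.66% and 3.34% of that rest in the controls against 22.8% and 35.5% in the knockouts.

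**Figure D3:**
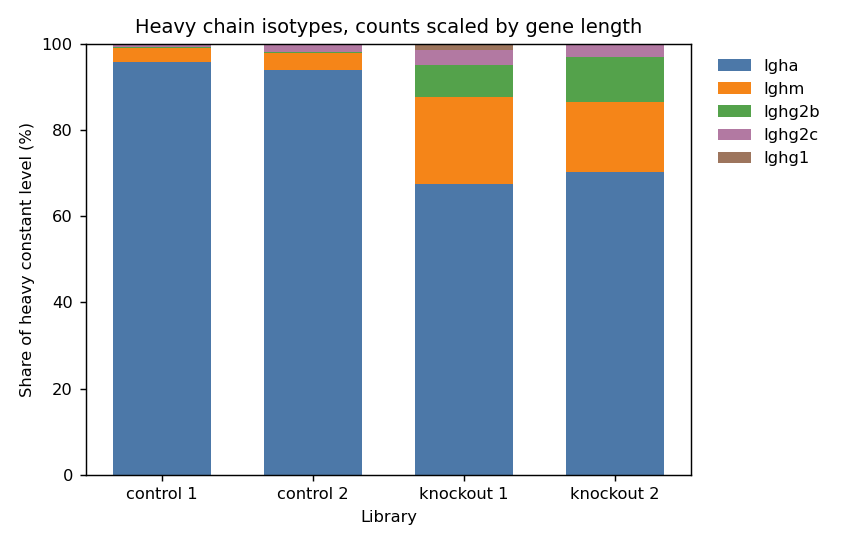
Share of each heavy chain constant gene in the summed heavy constant level of each library, in percent, with counts scaled by gene length. The Igha share is above 93% in both controls and near 70% in both knockouts, where Ighm and Ighg2b fill most of the difference.

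Light chain constant RNA was lower as well. Igkc (ENSMUSG00000076609), the only kappa constant gene, stood at 110.8 and 104.9 CPM in the controls against 19.98 and 19.78 CPM in the knockouts. The replicates of each group were nearly equal, at 107.9 ± 4.19 and 19.88 ± 0.14 CPM (SD, n = 2 each), and the groups were far apart. The log2 fold change was −2.44 (SE 0.21, 95% interval −2.94 to −1.94). The edgeR adjusted p was 0.0613, with a range of 5.58e-14 to 0.0974 over the alternatives, of which 7 of 11 called it, again all 4 that left out 1 library.

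The 3 lambda constant genes of the TPM table were lower too, at few counts. Iglc1 had 72 and 120 counts in the controls against 5 and 14 in the knockouts, a ratio of normalised counts of 8.85 (95% counting interval 5.51 to 15.02), and DESeq2 called it (adjusted p 0.0148, with 0.872 in edgeR). Iglc2 had 40 and 36 counts against 5 and 8, a ratio of 5.12 (2.82 to 10.05), and Iglc3 had 21 and 24 against 5 and 1, a ratio of 6.57 (2.79 to 18.8). All 3 lay lower in both knockouts than in both controls. These counting intervals, from exact binomial limits, cover counting error only, since reads copied by PCR are not independent molecules. Iglc2 and Iglc3 are 96.2% identical in coding sequence. The start of each shows how short the runs without a difference are, with capitals at the 5 differing bases.
Iglc2: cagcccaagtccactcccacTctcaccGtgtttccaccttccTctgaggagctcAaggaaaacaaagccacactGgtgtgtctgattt
Iglc3: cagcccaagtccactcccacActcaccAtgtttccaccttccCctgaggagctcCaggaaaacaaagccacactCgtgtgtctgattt

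Heavy and light chains were lower to a similar extent. Per length, the TPM of all heavy constants was 0.593 and 0.682 of that of all light constants in the controls against 0.761 and 0.612 in the knockouts, so the groups overlapped. Igha alone stood at 0.589 and 0.676 of the Igkc TPM in the controls against 0.526 and 0.449 in the knockouts, lower in both. The lambda constants stood at 0.0374 and 0.0544 of Igkc in the controls against 0.0243 and 0.0442 in the knockouts, and overlapped. On this scale Igkc was the most abundant immunoglobulin gene in all 4 libraries, at 666.7 and 632.3 TPM in the controls against 124.1 and 106.5 TPM in the knockouts, followed by Igha at 392.9, 427.3, 65.27 and 47.82 TPM in the same order. By locus, the summed constant CPM was 5.38-fold lower in the knockouts for Igh, 5.42-fold for Igk and 7.04-fold for Igl.

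The V segments differed in amount too, by less than the constant regions and with more spread. Summed over the 28 V members, the level was 43.06 and 19.46 CPM in the controls against 7.19 and 13.72 CPM in the knockouts. Both knockouts were below both controls, but the controls themselves differed 2.21-fold. The sum was 2.99-fold lower in the knockouts, against 5.41-fold for the constant genes. Without 1 library the V sum ran from 1.86-fold lower (without control 1) to 4.35-fold lower (without knockout 2). The constant genes were 5.57-fold and 5.04-fold lower in these 2 cases, so the size of the gap depends on the libraries kept. Over all 218 V rows it was likewise 2.99-fold lower, and over the 190 V rows that are not members, which the count minimum did not admit, 2.98-fold.

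By locus, the heavy V members were at 9.21 and 4.70 CPM in the controls against 2.93 and 3.46 CPM in the knockouts, 2.18-fold lower. The kappa V members were at 26.28 and 10.03 CPM against 3.81 and 8.63 CPM, 2.92-fold lower (1.61-fold without control 1 and 4.77-fold without knockout 2). Iglv1, the only lambda V member, was 5.88-fold lower by mean CPM (3.75-fold without knockout 1 and 13.6-fold without knockout 2). In each locus the knockouts lay below the controls. The 14 J segments of the count table had 40 and 31 counts in the controls against 12 and 11 in the knockouts, 2.70-fold lower in CPM. The J segments with the most counts were Ighj4 with 6, 9, 0 and 3 counts in controls 1 and 2 and knockouts 1 and 2, Igkj4 with 7, 4, 2 and 1, and Igkj2 with 12, 0, 1 and 0.

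**Figure D4:**
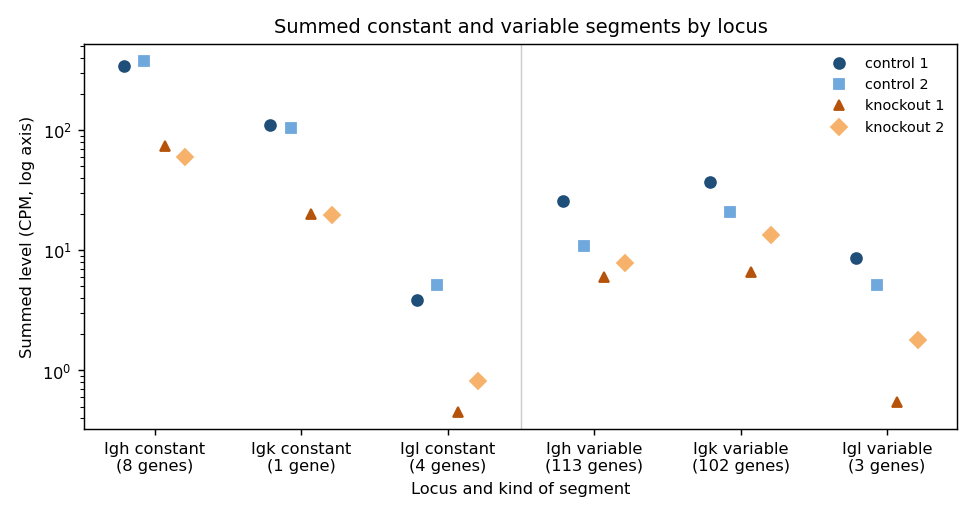
Summed level of all constant and all V rows of each locus in the count table, in CPM on a log axis, with 1 point per library (blue controls, orange knockouts). In all 6 sums both knockouts lie below both controls, and the libraries of a group lie farther apart in the V sums than in the heavy and kappa constant sums.

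The ratio of V to constant counts was compared within each library. Over all typed rows there were 7.67 and 2.94 heavy V counts per 100 heavy constant counts in the controls against 8.13 and 13.2 in the knockouts, higher in the knockouts by a narrow margin over control 1. In the kappa locus the ratio was 33.12 and 19.80 in the controls against 33.13 and 67.7 in the knockouts, so that control 1 and knockout 1 were nearly equal. In the lambda locus it was 225.6 and 100 in the controls against 120 and 217.4 in the knockouts, and the groups overlapped. Over the loci together it was 15.8, 7.65, 14.0 and 28.7 in the same order of libraries, and the groups overlapped. Reads of joined V segments carry junctions and somatic mutations that can keep them from aligning to the reference, and their number was not measured here.

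Single V segments varied widely from library to library. Of the 28, 26 had over 50% of their counts in 1 library, 4 had over 90%, and 11 were at 0 in at least 1 library. Control 1 held the highest CPM of 18 members, control 2 of 6, knockout 1 of 1 and knockout 2 of 3. Of the 28, 14 were lower in both knockouts than in both controls, where 13.1% of all genes tested were, and 0 were higher in both. Since a segment below the count minimum in all but 1 library could enter only through that library, the 14 are a description.

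The heavy V segments with the highest mean level took different courses. Ighv3-6 had 59 and 32 counts in the controls against 19 and 4 in the knockouts (log2 fold change −1.83, SE 0.78), and Ighv5-17 had 36 and 42 against 10 and 8 (−1.91, SE 0.58). Both were lower in both knockouts, and neither was called by edgeR or DESeq2. Ighv5-6 had 59 and 12 counts in the controls against 0 and 4 in the knockouts, a ratio of 15.5 (95% counting interval 5.81 to 58.6), also without overlap. Ighv1-81 had 58 and 1 counts against 20 and 19, so that the controls lay on either side of the knockouts and the sign of its fold change differed between fits. Ighv2-4 had 56 counts in knockout 2 and 0 in the other 3 libraries, which made it 25.3% of that library's heavy V counts.

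Among kappa V segments, Igkv1-110 had the most counts, with 156 and 55 in the controls against 37 and 23 in the knockouts (log2 fold change −1.64, SE 0.62). Its relative Igkv1-117, 97.2% identical in coding sequence, had 73 and 21 counts against 16 and 24, and its groups overlapped. Igkv5-43 had 93 and 9 counts in the controls against 2 and 6 in the knockouts, a ratio of 11.2 (95% counting interval 5.46 to 26.6). Igkv10-96 had 84 and 16 against 4 and 1, a ratio of 17.5 (7.26 to 55.1). Both were lower in both knockouts, with most counts in control 1. Igkv14-111 ran the other way in 1 library only, with 63 counts in knockout 2, 1 in knockout 1, and 5 and 25 in the controls.

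Iglv1, the lambda V segment, was the V segment with the highest mean CPM. It had 263 and 166 counts in the controls against 15 and 46 in the knockouts, or 7.57 and 4.73 CPM against 0.453 and 1.64 CPM. Both knockouts were below both controls (log2 fold change −2.56, SE 0.66). DESeq2 called it with an adjusted p of 0.0127, and edgeR gave 1.0, as did the highest of the alternatives.

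Of the 28, 4 V segments were at 0 in both knockouts, and 3 of these are the only Igkv4 family members of the TPM table. In the other direction 1 V member, Ighv2-4, was at 0 in both controls. A segment at 0 in both knockouts could reach the count minimum only through the controls, so this number and the bounds that follow are a description. Igkv4-50 had 85 and 10 counts in the controls, which against a floor of 3 counts per library is at least 13.8-fold lower in the knockouts, a bound that rests mostly on control 1. DESeq2 called it, and edgeR did so with no low-count filter and without control 2. Igkv4-91 (74 counts) and Igkv4-70 (57 counts) were found in control 1 and in no other library. Ighv1-54, the fourth, had 51 and 7 counts in the controls, at least 8.44-fold lower in the knockouts. The 26 Igkv4 rows of the count table were also summed, a grouping chosen after the values were seen. The family made up 23.1% and 18.8% of kappa V counts in the controls against 5.48% and 5.05% in the knockouts. Its counts were 294, 137, 12 and 19 in controls 1 and 2 and knockouts 1 and 2. The sum includes the 3 members at 0 in both knockouts, which led to this grouping. Their 85, 74 and 57 counts are most of the 294 in control 1. Of the 137 in control 2, only the 10 of Igkv4-50 come from them. The shares are therefore a description and lend no separate weight to the zeros. The starts of the first 2 coding sequences show how alike they are, with capitals at the 8 differing bases, and Igkv4-91 is given in lower case.
Igkv4-50: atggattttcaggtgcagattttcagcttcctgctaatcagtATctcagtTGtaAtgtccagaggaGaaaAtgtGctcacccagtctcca
Igkv4-70: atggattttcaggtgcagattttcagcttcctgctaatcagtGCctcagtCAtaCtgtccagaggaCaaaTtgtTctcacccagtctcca
Igkv4-91: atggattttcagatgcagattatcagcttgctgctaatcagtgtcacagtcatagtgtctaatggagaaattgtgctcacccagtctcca
Over the whole coding sequence Igkv4-50 and Igkv4-70 were 89.8% identical, and no 150-base stretch of either was shared with another immunoglobulin gene.

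**Figure D5:**
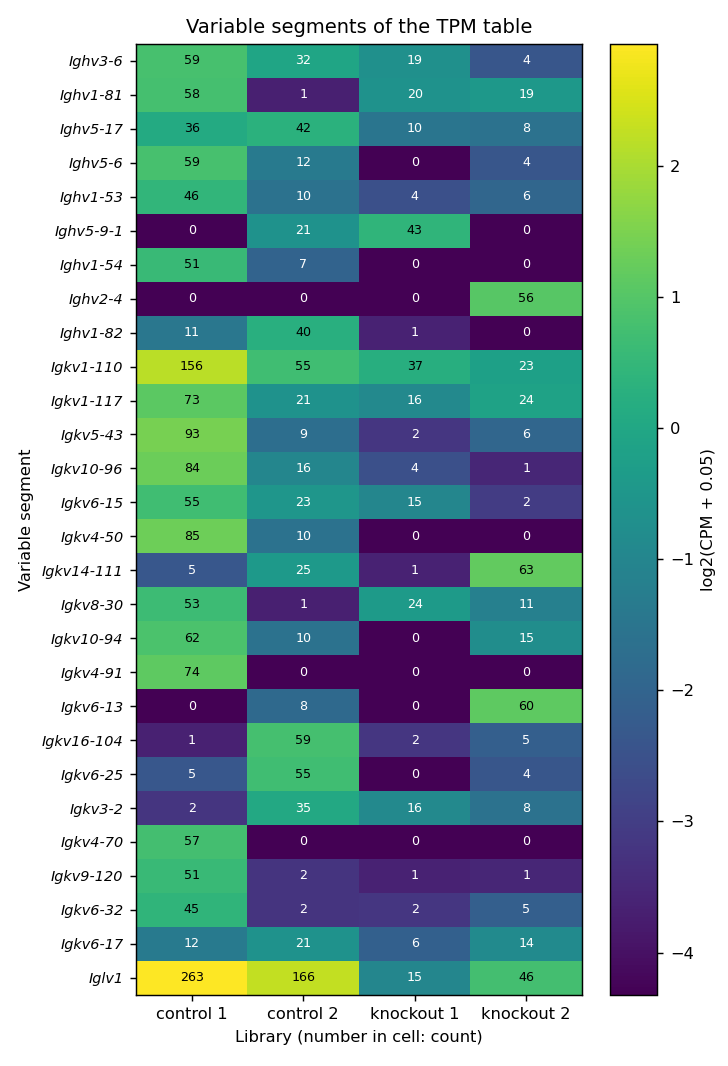
Counts of the 28 V members (numbers in cells) in each library, coloured by log2(CPM + 0.05). Control 1 is brightest in most rows, and bright cells in a single library stand out for Ighv2-4 and Igkv6-13 in knockout 2, Igkv16-104 in control 2 and Igkv4-91 and Igkv4-70 in control 1.

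The other V members had up to 62 counts in any library. Igkv6-15 (55 and 23 counts in the controls, 15 and 2 in the knockouts), Ighv1-53 (46 and 10 against 4 and 6), Ighv1-82 (11 and 40 against 1 and 0), Igkv6-25 (5 and 55 against 0 and 4) and Igkv9-120 (51 and 2 against 1 and 1) were lower in both knockouts. Igkv16-104, Igkv6-32, Igkv10-94, Igkv8-30, Igkv3-2, Igkv6-17, Igkv6-13 and Ighv5-9-1 had groups that overlapped. Among these, Igkv6-13 had 60 of its 68 counts in knockout 2 and Ighv5-9-1 had 43 of its 64 in knockout 1, with 0 in knockout 2.

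The make-up of the V counts was compared over all 218 V rows, since the member list depends on the count minimum. Of these, 162 had a count in some library. In controls 1 and 2, 94 and 75 V segments reached 3 counts, and in each knockout 39 did. At the depth of the smallest library, 434 V counts, the number of V segments expected to be seen was 84.1 and 84.9 in the controls against 74.0 and 69.9 in the knockouts. At equal depth the groups lay closer together, with both knockouts still below both controls. In the heavy locus the expected numbers at 197 counts were 43.5 and 45.3 against 34.0 and 32.6, and in the kappa locus at 219 counts they were 40.2 and 43.1 against 37.0 and 36.4. These numbers treat counts as independent, which copies of 1 transcript from 1 plasma cell are not.

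Counts were also held by fewer segments in the knockouts. It took 15 and 14 V segments to reach 50% of V counts in the controls against 10 and 8 in the knockouts. These are at unequal depth, with 2475 and 1292 V counts in the controls against 434 and 647 in the knockouts. Iglv1 was the most used V segment in both controls, at 10.6% (95% Wilson interval 9.47 to 11.9) and 12.8% (11.1 to 14.8) of V counts. Ighv5-9-1 led in knockout 1 at 9.91% (7.44 to 13.1) and Igkv14-111 in knockout 2 at 9.74% (7.68 to 12.3), shares within each other's counting error. The leading segment of each knockout had at most 1 count in the other. The shared use of a pair of libraries, the sum over V segments of the smaller of their shares, was 44.4% between the controls, 31.9% between the knockouts and 36.3% to 42.5% between a control and a knockout. The pooled value between the knockouts was the lowest of the 6 pairs, at unequal depth, but this did not hold in each locus. For heavy V segments the knockouts shared 22.6%, against 19.8% between control 2 and knockout 2. For kappa V segments they shared 35.3%, against 35.2% between the controls. Of the 218 segments, 50 had counts in controls only and 15 in knockouts only, at unequal depth, and 45 had counts in exactly 1 library.

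Other genes of antibody production were examined from lists of known members. For each list, the share of all genes tested at an unadjusted p under 0.05 was 1.79% lower and 1.22% higher. Of 18 plasma cell markers, 16 were tested, and edgeR called 0 in either direction, with 2 lower at an unadjusted p under 0.05 and a median log2 fold change of −0.34. Jchain, which links IgA and IgM units, stood at 91.6 and 97.4 CPM in the controls against 14.8 and 25.8 CPM in the knockouts. Both knockouts were far lower (log2 fold change −2.22, SE 0.30), with an adjusted p of 0.216 in edgeR and 3.96e-07 in DESeq2. The TPM of Jchain was 0.297 and 0.290 of that of Igha in the controls against 0.298 and 0.613 in the knockouts. Slamf7, a surface receptor of plasma and NK cells, had 183 and 285 counts in the controls against 92 and 57 in the knockouts (log2 fold change −1.47, SE 0.42, not called by edgeR or DESeq2). Xbp1, a transcription factor of secretory cells, and Sdc1, a surface proteoglycan of plasma cells and epithelium, had the most counts of the list. Their log2 fold changes were −0.13 (SE 0.33) and 0.30 (SE 0.36), in a tissue whose epithelium also transcribes both.

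Of 18 B cell markers, 14 were tested, with 0 called by edgeR or DESeq2, 1 lower at an unadjusted p under 0.05 (Fcrla, with 29 and 21 counts in the controls against 3 and 4 in the knockouts) and a median log2 fold change of −0.28. Over the same 14 genes this median turned to 0.10 without knockout 2, and was −0.83 without knockout 1 and −0.034 without control 2. Ebf1 and Pou2f2, B cell transcription factors and the most abundant of the list, had log2 fold changes of −0.36 (SE 0.37) and −0.41 (SE 0.41). The defining marker Ms4a1, chosen after its values were seen, was near 0 except in knockout 1, with 4, 3, 35 and 4 counts in controls 1 and 2 and knockouts 1 and 2. Of 10 genes of antibody diversification and early B cells, 3 were tested and 0 passed at an unadjusted p under 0.05 or in DESeq2.

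Antibody receptors included genes with higher and genes with lower values in the knockouts. Of 12, 9 were tested, with 0 called by edgeR and 2 lower and 2 higher at an unadjusted p under 0.05. Pigr, the epithelial carrier of polymeric IgA, stood at 43.1 and 73.8 CPM in the controls against 152.6 and 86.3 CPM in the knockouts, higher in both (log2 fold change 1.03, SE 0.37, edgeR adjusted p 1.0). Fcgrt, the neonatal Fc receptor, had a log2 fold change of 0.50 (SE 0.20). Fcer1g, the signalling chain shared by Fc receptors, had 734 and 940 counts in the controls against 340 and 235 in the knockouts (log2 fold change −1.36, SE 0.28), and DESeq2 called it lower (adjusted p 0.0187, with 0.727 in edgeR).

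Of 15 genes for signals that recruit or sustain plasma cells, 12 were tested, with 0 called by edgeR or DESeq2 and 2 lower and 1 higher at an unadjusted p under 0.05. Ccl28, an epithelial chemokine for IgA plasma cells, stood at 3.68 and 7.98 CPM in the controls against 12.3 and 20.6 CPM in the knockouts, higher in both (log2 fold change 1.496, SE 0.46). Il5, a cytokine that acts on B cells and eosinophils, had 18 and 16 counts in the controls against 5 and 2 in the knockouts. Cxcl12 and Tgfb1, the most abundant of the list, had log2 fold changes of 0.40 (SE 0.23) and −0.10 (SE 0.23).

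T cell receptor segments, the other rearranged genes of the TPM table, gave 9 members. Of these 0 were called by edgeR or DESeq2 and 0 passed at an unadjusted p under 0.05. Their median log2 fold change was −0.41, against −1.83 for the immunoglobulin members. Of the 9, 1 was lower and 1 higher without overlap, where 13.1% and 12.2% of all genes tested were. The difference between the families was not tested, and the T cell receptor median turned to 0.23 without control 2. T cell markers had a median of −0.084 over 14 genes and NK cell markers −0.30 over 10, each with 0 called by edgeR or DESeq2 and 0 at an unadjusted p under 0.05. Without control 2 both medians turned, to 0.28 and 0.047.

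Markers of other cells also differed between libraries. Of 12 macrophage markers, 11 had a log2 fold change below 0, against 48.9% of all genes tested, with a median of −0.60. At an unadjusted p under 0.05, 5 were lower, where 1.79% of all genes were, and 0 were called by edgeR or DESeq2. Their summed level was 647.2 to 834.0 CPM in controls and 484.5 to 512.6 CPM in knockouts. The 8 fat cell markers summed to 9.87 and 12.3 CPM in controls 1 and 2 and to 12.2 and 50.04 CPM in knockouts 1 and 2, highest in knockout 2. Single markers differed in this: Plin4, the most abundant together with Cfd, had 295, 184, 385 and 277 counts in the same order, Cfd 5, 85, 1 and 508, and Adipoq, named after its values were seen, 0, 32, 0 and 145. Without knockout 2 the log2 fold change was −2.69 for Igha and −2.43 for Igkc. Leaving out that library does not remove fat cell RNA, since control 2 held Cfd and Adipoq counts too. The relation of fat content to the immunoglobulin levels was not tested. Smooth muscle markers summed to 3118 to 8446 CPM in controls and 7233 to 10891 CPM in knockouts, lowest in control 2. Of 7 lymph node stroma and vessel markers found by symbol, the summed level of 53.5 to 114.4 CPM in controls and 39.1 to 243.7 CPM in knockouts came mostly from the vessel genes Ccl21a and Lyve1, while Ccl19 had at most 4 counts and Glycam1 at most 14. Blood cell markers summed to 40.7 to 120.9 CPM in controls and 43.4 to 144.3 CPM in knockouts. The part of any of these cell types in the immunoglobulin differences was not tested.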

How the data were processed

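RNA was sequenced from 2 control and 2 knockout uteri in paired reads of 150 bases, demultiplexed with bcl2fastq 2.17 (design text of the series). The authors trimmed reads with Trimmomatic, aligned them with STAR to GRCm39 and counted them with featureCounts, per the submitters' processing notes. The sources used here give no versions, strand setting or treatment of reads with more than 1 match. The authors deposited a table of raw counts for 57186 genes and a table of TPM for 19991 of them, with gene types. Each column was tied to its sample by the column name in the labels. No 2 libraries were identical (chi-square over its degrees of freedom at least 40.9 for each pair).

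The test was edgeR 4.0.16 (quasi-likelihood F-test, TMM factors, filterByExpr with a minimum count of 10 and total of 15, group as the only term) in R 4.3.3 on all deposited counts. It kept 20950 genes, with a biological coefficient of variation of 0.309, and a Benjamini-Hochberg adjusted p under 0.05 counted as called. The edgeR fit was tested on simulated counts. The alternatives tried were DESeq2 1.42.0, limma-voom 3.58.1, RLE factors, upper-quartile factors, no filter, a minimum count of 30, the replicate number as a block, and leaving out each library. Isotype shares and V use were computed from counts. Gene types for rows outside the TPM table and all sequences came from GENCODE M21 (GRCm38) by gene ID, and no coordinates are given since the files use GRCm39.

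The members and lists were chosen with earlier results of these data known. Named genes are all constant genes, the 5 V segments of each locus and the 3 J segments with the highest mean level, members called by edgeR or DESeq2, and in each list the 2 most abundant genes and up to 2 with the smallest unadjusted p under 0.05. Other genes were named after their values were seen. Some list genes are not reported here. A ranking of genes by likeness to Igkc was also set out and is left out, since it rests on 4 libraries.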

Additional observations from a re-analysis of the deposited data

How the results depend on the processing

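The direction of the Igha, Igkc, Ighg2b, Iglc1, Iglc2, Iglc3 and Iglv1 differences and of the 6 locus sums was the same under every alternative that gave a value. The count of members called was not: it was 0 lower and 0 higher in the reported fit, 5 and 1 in DESeq2, and 3 and 1 with no low-count filter. Leaving out 1 library in turn gave 2 to 4 lower and 0 to 1 higher. There the arm with 1 sample is assumed to vary like the other arm. Igha and Igkc were among the members called lower in each of these fits, and the 1 called higher without knockout 1 was Ighv2-4, found only in knockout 2. Over all genes the calls were 0 lower and 1 higher in the reported fit, 46 and 44 in DESeq2, and 19 and 35 with no filter. The replicate block gave 2 members lower and 0 higher (10 and 22 over all genes), but with 2 pairs whose deviations correlated at −0.44 the replicate numbers are not shown to pair samples. A crossed replicate block, added after seeing the data, gave 2 lower and 1 higher (15 and 22 over all genes).

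The median log2 fold change was −2.27 in DESeq2, −2.26 with no filter and −2.70 to −1.31 leaving out 1 library, where 29 to 37 members were tested. Over the 25 of the reported fit (24 without control 2) it ran from −2.01 to −1.31. Leaving out 1 library, the summed log2 ratio ran from −1.53 to −0.56 for heavy V, from −3.30 to −2.45 for lambda constants and from −3.76 to −1.91 for lambda V. It was −2.49 for Igkc with deposited TPM. Without length scaling the isotype difference was −22.5 points for Igha and 11.3 for Ighm. The mean number of V members reaching 3 counts differed by −6 (knockout minus control), by −9.5 at a minimum of 10 counts and by −45.5 over all V rows. The log2 ratio of V to constant counts, knockout over control, ran from 0.86 to 1.96 for heavy, from 0.20 (without knockout 2) to 1.71 (without control 1) for kappa, where all libraries gave 0.91, and from −0.54 to 0.70 for lambda, where all libraries gave 0.049 and those without control 2 −0.40. The cause of these changes was not tested. Genes with a sign that turned were Ighm (0.0022 in DESeq2, −0.34 to 0.29 leaving out 1 library, among them 0.28), Ighg1 (−2.32 to 3.15, among them −0.33), Ighv1-81 (1.29 in limma-voom, 0.76 with the replicate block, 0.44 crossed, −1.38 to 4.33), Igkv1-117 (−1.65 to 0.17) and Igkv14-111 (−0.21 in limma-voom, −3.67 to 2.94). Uneven counts limit the V segments. Of the 28, 12 had too few libraries at the count minimum to be tested, and 26 had over 50% of their counts in 1 library.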
